A study of Mus musculus with 11 samples.

Results

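Embryo-only regions are stretches of open chromatin called in cells of the embryonic mouse esophagus and in none of the adult libraries of the same study. Open chromatin was mapped by ATAC-seq, in which a transposase cuts accessible DNA, and each of 11 libraries gave a list of intervals called as open. The intervals of all lists on chromosomes 1 to 19 and X were merged into 124941 regions wherever they shared at least 1 bp, and a region counted as open wherever a library had an interval over part of it. The members, selected on presence or absence of called intervals alone, were the 4618 regions (3.70% of all) open in at least 1 of 2 Embryo libraries and in 0 of 9 adult libraries. Of these, 505 (0.404% of all regions) were open in both Embryo libraries and 4113 in 1 of them. The 4618 were 17.6% of the 26294 regions open in an Embryo library, and the 505 were 4.11% of the 12298 open in both. Absence from the adult lists chose these regions, so it is a description and was not tested.

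The Embryo group (2 libraries) was esophagus of embryonic day 13 with the genotype Krt8YFP, sorted on YFP. Krt8 is a keratin of simple epithelia. The labels give neither the construct behind the name, nor a strain, nor any pooling of embryos. The 9 other libraries, called adult by the rule although the labels give no age, came from esophagus in 3 groups of 3. SmoM2-Sox9cKO had the genotype Krt5-SmoM2-Sox9fl/fl and was sorted for high EpCAM, an epithelial adhesion protein. SmoM2 had the genotype Krt5-SmoM2, strain CD1, and was also sorted for high EpCAM. WT was wild type, strain CD1, and was sorted for low EpCAM. SmoM2 is an activated form of the Hedgehog transducer Smoothened, Krt5 is a keratin of basal cells, and the labels name no inducing agent. Stage, genotype and sorting marker all differ between the Embryo group and each other group and cannot be told apart. The labels do not say whether libraries of a group came from separate animals, so the p-values below measure only the spread between libraries, which may be technical.

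No read numbers came with the lists used here, and the depth of each library is unknown. The Embryo lists were short. Embryo 1 had 24902 intervals covering 15.4 Mb and Embryo 2 had 14255 covering 8.22 Mb, against 69026 to 87910 intervals in the adult libraries. Embryo 1 supplied most members, 3870 against 1253 for Embryo 2. Its share was also the higher one, with members at 15.8% of its open regions against 8.92% in Embryo 2. In sorted bulk cells, fewer cells with a site open and less accessibility per cell cannot be told apart, and a weakly open site can fall below a caller's threshold.

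The esophagus forms from foregut endoderm. Its embryonic lining is a simple columnar epithelium with Krt8 and Krt18, which is replaced by a stratified squamous epithelium whose basal cells express Krt5 and Trp63. Transcription factors of the forkhead (Foxa2) and GATA (Gata4, Gata6) families open chromatin in endoderm, and much of the open DNA that differs between stages lies in enhancers away from gene starts, while promoters of widely used genes are open in most cells.

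Embryo-only regions overlapped the promoter windows of 184 genes in RefSeq, 4 of which are printed to show what such promoters look like. They were chosen after their values were seen, as genes with a known role in simple epithelium or endoderm (Krt8, Hnf4a), in the early embryo (Apela) or with the highest rank among promoters open in both Embryo libraries (Rab3c). Each is the stretch of 250 bases before the start site in build GRCm38.p6, 5′ to 3′ on the gene's strand. Capitals mark matches on either strand to a TATA box with the letters TATAAA, to the box named CCAAT, to a GC box with the letters GGGCGG, the letters AGATAA bound by GATA factors, or the letters TGTTTAC bound by forkhead factors. A match is a string of letters and not a shown binding site.
Krt8, chr15:102004343-102004592, minus strand: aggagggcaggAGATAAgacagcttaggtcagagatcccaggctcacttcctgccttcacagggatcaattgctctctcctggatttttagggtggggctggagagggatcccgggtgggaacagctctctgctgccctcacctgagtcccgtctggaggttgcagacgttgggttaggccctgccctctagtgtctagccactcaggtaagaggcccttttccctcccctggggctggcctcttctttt
Hnf4a, chr2:163506607-163506856, plus strand: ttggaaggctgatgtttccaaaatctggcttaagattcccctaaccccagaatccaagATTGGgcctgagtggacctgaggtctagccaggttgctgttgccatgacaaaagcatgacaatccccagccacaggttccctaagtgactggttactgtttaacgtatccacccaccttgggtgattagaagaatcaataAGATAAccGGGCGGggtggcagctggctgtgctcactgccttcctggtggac
Apela, chr8:65037337-65037586, minus strand: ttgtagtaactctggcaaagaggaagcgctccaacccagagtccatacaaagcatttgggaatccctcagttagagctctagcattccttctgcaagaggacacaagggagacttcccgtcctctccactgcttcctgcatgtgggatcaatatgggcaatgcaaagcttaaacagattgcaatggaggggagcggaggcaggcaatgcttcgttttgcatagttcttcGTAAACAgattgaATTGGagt
Rab3c, chr13:110280207-110280456, minus strand: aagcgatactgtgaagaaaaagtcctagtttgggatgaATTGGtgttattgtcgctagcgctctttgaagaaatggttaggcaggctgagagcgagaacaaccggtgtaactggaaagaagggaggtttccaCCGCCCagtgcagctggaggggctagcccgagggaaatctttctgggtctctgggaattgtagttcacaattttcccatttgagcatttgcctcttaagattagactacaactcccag

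The Krt8 promoter was open in Embryo 2 alone, in a region of 410 bp at chr15:102004191-102004600. Its interval stood at the 17.3rd percentile of that list by the authors' −log10 p, where 100 is the strongest interval. Embryo 1 had its own Embryo-only interval 917 bp from the start, at chr15:102002968-102003425 and the 39.6th percentile, so the embryonic libraries did not share an Embryo-only region at Krt8. The closest region open in an adult library lay 577 bp from the region of Embryo 2 and 1752 bp from that of Embryo 1. The only other region at Krt8 was open in Embryo 1 and in every adult library. Hnf4a, a nuclear receptor of endodermal epithelia, was open at the printed promoter in Embryo 1 alone, at the 52.3rd percentile. The promoter of Apela, a peptide hormone of the early embryo, was open in both Embryo libraries at percentiles 26.8 and 18.6, and that of Rab3c, a vesicle GTPase, at percentiles 84.5 and 65.4.

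A region of 286 bp open in both Embryo libraries lay close to the miR-200b, miR-200a and miR-429 cluster, whose products keep cells epithelial by repressing Zeb1 and Zeb2. It was at chr4:156050601-156050886, 3018 bp from Mir429, and lay over a RefSeq start site of the gene Ttll10. It ranked at percentile 5.47 in Embryo 1 and 32.8 in Embryo 2, and the closest adult interval lay 3104 bp away. On the cluster itself, regions were open in adult libraries only, chr4:156053991-156054351 in SmoM2-Sox9cKO 3 and WT 3, and chr4:156055241-156055733, over Mir200b, in WT 1 and WT 3. Farther out, chr4:156058623-156060289 was open in both Embryo libraries and all 9 adult libraries. The 3p products of the cluster are printed from RefSeq (GRCm38.p6) to show their seeds, bases 2 to 8 in capitals. They were chosen after the region was seen.
miR-200b-3p: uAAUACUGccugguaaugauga
miR-429-3p: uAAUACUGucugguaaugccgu
miR-200a-3p: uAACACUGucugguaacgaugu
The first and second share the seed AAUACUG, and miR-200a-3p has the seed AACACUG.

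Regions chosen in 1 Embryo library were looked up in the other, which had no part in choosing them. Of the 3870 regions open in Embryo 1 and in no adult library, 505 were open in Embryo 2, or 13.05% (Wilson 95% interval 12.02 to 14.1). Among regions of Embryo 1 also open in at least 1 adult library, 57.0% were open in Embryo 2. Of the 1253 regions chosen in Embryo 2, 40.3% (37.6 to 43.0) were open in Embryo 1, against 92.2% of its regions also open in adult libraries. In both directions the share was lower for the Embryo-only regions. The intervals cover counting error only, and with 2 libraries there is no test. Merging can join 2 Embryo intervals through an adult interval that overlaps each, and the region then counts as open in both libraries. Embryo-only regions cannot be joined in this way. The part of merging in the lower share was not tested.

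The same was seen at equal rank. In each library's list, intervals were cut into 5 equal classes by −log10 p. In the weakest class of Embryo 1, 7.23% of Embryo-only regions and 15.6% of the others were open in Embryo 2. In the strongest class the shares were 70.8% of 24 Embryo-only regions and 97.5% of the others. In Embryo 2 the shares open in Embryo 1 were 30.9% of Embryo-only regions and 78.0% of the others in the weakest class, and 72.7% of 22 and 99.4% in the strongest. Within each class the Embryo-only share was the lower one, with the same limit from merging.

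**Figure D1:**
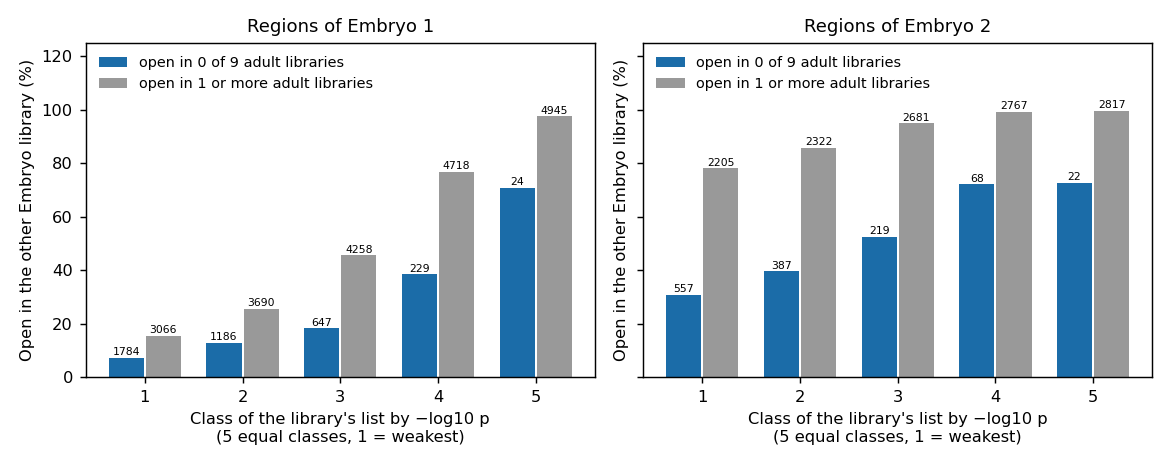
Share (%) of the regions of Embryo 1 (left) and Embryo 2 (right) that were open in the other Embryo library, by 5 equal classes of the list ranked on −log10 p (1 is the weakest). Blue bars are regions open in 0 of 9 adult libraries and grey bars those open in 1 or more, with the number of regions above each bar. Blue is lower in every class, 7.23% against 15.6% in the weakest and 70.8% against 97.5% in the strongest class of Embryo 1. Merging with adult intervals can join Embryo intervals in grey regions but not in blue ones.

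Embryo-open regions fell mostly at the extremes of adult openness. Besides the 4618 members, 16947 were open in all 9 adult libraries and 4729 in 1 to 8. The share open in both Embryo libraries was 10.9% for members, 26.7% for the 742 regions open in exactly 1 adult library, and 62.3% for those open in all 9. Merging through adult intervals can raise this share for regions open in adult libraries but not for members. Just outside the rule, SmoM2 1 was the lone adult library at 212 of the 742 regions and WT 1 at 24. When an adult library was left out of the rule and then read, between 0.517% (WT 1) and 4.39% (SmoM2 1) of the regions so chosen were open in it. For regions open in both Embryo libraries these shares ran from 0.980% (WT 1) to 12.5% (SmoM2 1).

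**Figure D2:**
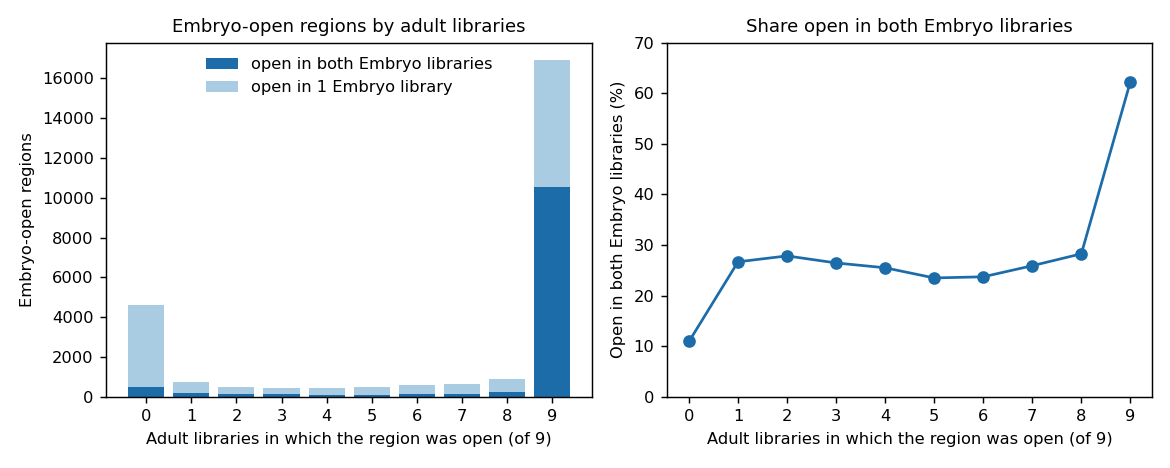
Left, number of Embryo-open regions by the number of adult libraries (0 to 9) in which they were open, split into those open in both Embryo libraries (dark) and in 1 (light). Right, percent open in both Embryo libraries; the 4618 Embryo-only regions stand at 0 with 10.9%, and regions open in all 9 adult libraries at 62.3%.

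Embryo-only regions were narrow, ranked low and lay away from genes' ends. Their median width was 422 bp, against 783 bp for Embryo-open regions shared with 1 to 8 adult libraries and 1356 bp for those shared with all 9. Merging widens a region found in more lists, so widths of merged regions partly follow the rule. Only 5.98% of Embryo-only regions lay within 1 kb of an end of a protein-coding gene, against 14.2% of those shared with 1 to 8 and 58.6% of those shared with all 9. Of all members, 47.5% overlapped a gene body, against 80.01% of regions shared with all 9, and 864 members (18.7%) had no protein-coding gene within 100 kb. The 505 open in both Embryo libraries were placed much like the rest, with 5.15% near a gene end and 45.3% over a gene body, but were wider, at a median of 666 bp.

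The median member stood at percentile 23.2 of the Embryo 1 list and 21.95 of the Embryo 2 list. Regions also open in all 9 adult libraries stood at 64.5 and 57.1. The authors' median fold enrichment over local background was 3.63 for members and 5.03 for other regions in Embryo 1, and 3.51 and 4.42 in Embryo 2. A stricter threshold, −log10 q of at least 5, was met by 928 of 3870 members in Embryo 1 and 315 of 1253 in Embryo 2. The members were therefore mostly the weaker calls of short lists.

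Members were spread over the genome. They made up between 12.6% of Embryo-open regions on chromosome 11 and 22.7% on chromosome 14. The nearest region open in an adult library lay at a median of 8248 bp. Of the members, 11.5% were within 1 kb of such a region and 18.5% more than 50 kb away. Another member lay within 10 kb of 361 of them (7.82%).

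To ask whether narrow, weak intervals away from gene ends are particular to the Embryo lists, the same was measured for every library: intervals in regions open only in its own group were compared with the other intervals of its list. The share within 1 kb of a gene end was 6.59% and 3.59% for such group-only intervals in Embryo 1 and 2, and 3.10% to 6.33% in the 9 adult libraries (median 4.57%). The ranges overlap, so Embryo-only intervals were about as far from gene ends as WT-only, SmoM2-only or SmoM2-Sox9cKO-only ones. What differed was the rest of the list, of which 49.0% and 57.7% lay near gene ends in the Embryo libraries, against 17.7% to 21.4% in the adult ones. Group-only minus other was −42.4 and −54.1 percentage points in Embryo and −14.7 ± 1.36 in adult libraries (SD, n = 9), a difference of −33.5 points (exact permutation test over the 11 libraries, two-sided, p = 0.0364, adjusted over 3 measures 0.0364, the smallest p that 2 against 9 allows). When every list was cut to the 14255 strongest intervals, the difference was −10.2 points (adjusted exact p = 0.109).

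By rank and width, Embryo-only intervals stood less far below the rest of their lists. Their median percentile was 33.3 and 31.5 points below that of the other intervals in Embryo 1 and 2, and 34.8 to 43.0 points below in the adult libraries. The difference of the means was 7.10 points. Their median width was 419 and 400 bp, against 581 and 484 bp for the other intervals of the same lists, a log2 ratio of −0.47 and −0.28. In adult libraries that log2 ratio was −1.06 ± 0.12 (SD, n = 9). For both measures the groups did not overlap, with exact two-sided permutation p = 0.0364 before and after adjustment. Neither difference was left in lists of equal length, where rank differed by −0.31 points and width by 0.00 on the log2 scale (adjusted exact p = 0.982 for each). List length moves with all 3 measures, and its part in the results above was not tested apart from these equal lists. For all 3 measures, libraries of a group share 1 definition of group-only regions and are not independent. The definition is also unequal between groups. Embryo-only intervals had to be absent from every long adult list. Those of an adult group had to be absent from the other adult lists and the short Embryo lists. The permutation test treats all 11 libraries as exchangeable, so its p-values account for neither point and cannot tell the Embryo group from the definition. Rank differences were −42.3 to −43.0 points in the SmoM2-Sox9cKO libraries and −34.8 to −38.8 in the WT libraries.

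**Figure D3:**
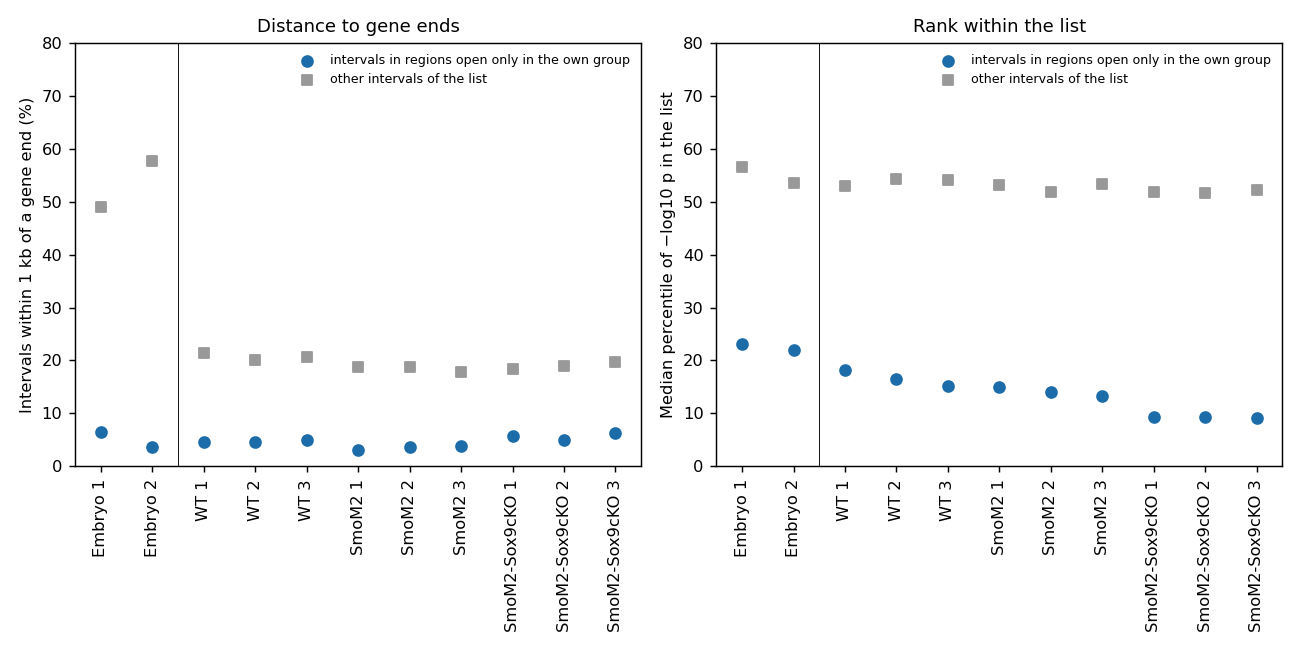
For each library, Embryo at the left, the percent of intervals within 1 kb of a protein-coding gene end (left panel) and the median percentile of −log10 p within the list (right panel). Blue circles are intervals in regions open only in the library's own group and grey squares the other intervals. Blue gene-end shares overlap between groups (3.59% and 6.59% in Embryo, 3.10% to 6.33% in adult libraries), while the grey squares of Embryo stand above those of adult libraries.

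The strongest member was a region of 417 bp at chr12:59262691-59263107, 40729 bp from Fbxo33, which encodes an F-box protein of ubiquitin ligases. It stood at percentiles 99.8 and 99.7 with fold enrichments of 26.2 and 27.8 in Embryo 1 and 2. The authors' −log10 q there was 337 and 420, and the closest region open in an adult library was 42273 bp away. It stood apart from all other members open in both libraries. The next were in Tsnax, whose product works with the RNA-binding protein translin (chr8:125020423-125023618, percentiles 90.6 and 85.7), and near Ccdc42 (chr11:68623305-68624193, percentiles 93.2 and 82.2). Just outside the rule, the strongest region open in both Embryo libraries and 1 adult library was at chr6:44792932-44793237, at percentiles 99.5 and 99.2.

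Among members open in both libraries and within 1 kb of a gene end, the highest ranks belonged to Mep1a, a metalloprotease subunit of intestine and kidney brush borders (87.9 and 81.9), Cntn3, a neuronal adhesion protein (93.8 and 69.3), Rab3c, and Cxcl15, a lung chemokine (80.5 and 40.4). The top members open in 1 library included an interval inside Lsamp, a neuronal adhesion gene, at percentile 95.6 of Embryo 2.

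A small set of members was wide. Whereas the middle of the members' widths ran from 335 to 568 bp (quartiles), 24 exceeded 2 kb, and 17 of these were open in both Embryo libraries. The widest, of 4188 bp, lay near Magea2, a cancer-testis gene of the X chromosome (chrX:155012197-155016384), at percentiles 9.25 and 54.6. Others lay in Orc5, an origin recognition subunit (2913 bp, percentiles 62.0 and 50.3), and in Cdk6, a cyclin-dependent kinase of the G1 phase (2489 bp, 61.4 and 44.2). Another, of 2921 bp, lay 36092 bp from Lin28b. This set was singled out after its widths were seen.

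Of 21631 protein-coding genes, 2852 (13.2%) were the nearest gene, within 100 kb, to at least 1 Embryo-only region, and 398 (1.84%) to one open in both Embryo libraries. Among the 13852 genes with any Embryo-open region the share was 20.6%. Most genes (2245) had 1 member and 77 had 4 or more. The largest counts were at long genes: 8 members at Ppp2r2b, a phosphatase regulatory subunit, and 7 each at Camta1, a calmodulin-binding transcription activator, and Lrmda, a melanocyte differentiation gene. Counts are not scaled to the length of a locus. For the lists below, the share of genes is therefore given beside a share of regions, the Embryo-only part of the list's Embryo-open regions over 1 kb from a gene end. Over all genes that second share was 25.7% (3478 of 13550 regions).

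Regulators of foregut endoderm had members often. Of 34 such genes, 16 (47.1%) were nearest to 31 Embryo-only regions, and 4 of the 16, including Foxa2, Pdx1 and Klf5, to one open in both Embryo libraries. Away from gene ends, 30 of their 72 Embryo-open regions (41.7%) were Embryo-only. The counts are descriptions beside the 13.2% and 25.7% of all genes, and the list was chosen with earlier results of these data known. Without Embryo 1 the share of listed genes was 20.6% (7 of 34), against 4.06% of all genes. With members assigned only within 20 kb it was 23.5% (8 of 34), against 10.7% of all genes.

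Foxa2, the forkhead factor of endoderm, had 4 members. Its locus held 8 and 4 open regions in Embryo 1 and 2, against a lowest of 3, a median of 3 and a highest of 7 in the adult libraries. The member open in both Embryo libraries was at chr2:147984674-147985606, 57270 bp from the gene, at percentiles 26.7 and 21.95. Another, 2425 bp from the gene at percentile 38.2 of Embryo 1, lay 28 bp from a region open in an adult library, so both regions nearly touched. The long non-coding gene 9030622O22Rik beside Foxa2 held 4 members in its body and 7 within 100 kb.

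Gata4, a zinc-finger factor of endoderm and heart, had 6 members, all of them in Embryo 1. The locus held 8 and 0 open regions in Embryo 1 and 2, against 2 to 5 (median 4) in adult libraries. The 6 ranked between percentiles 4.79 and 69.8, the highest at chr14:63205232-63205728 inside the gene with a fold enrichment of 5.69. Its relative Gata6 had 4 members, again all in Embryo 1, with 5 and 1 open regions in the Embryo libraries and 1 to 3 in the adult ones. The Embryo libraries thus did not agree at the GATA loci, where the shorter list held 1 open region in all.

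Pdx1, the homeobox factor of pancreas and duodenum, had 1 member, open in both libraries and 1076 bp wide, at percentiles 52.5 and 34.6 (chr5:147262098-147263173). No Embryo-only region was assigned to Sox2, Foxa1 or Nkx2-1, 3 other regulators of the foregut. Sox2 had 5 and 2 open regions in the Embryo libraries and 10 to 14 in adult ones, and Nkx2-1 had 0 and 0 in Embryo and 1 to 6 in adult libraries.

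**Figure D4:**
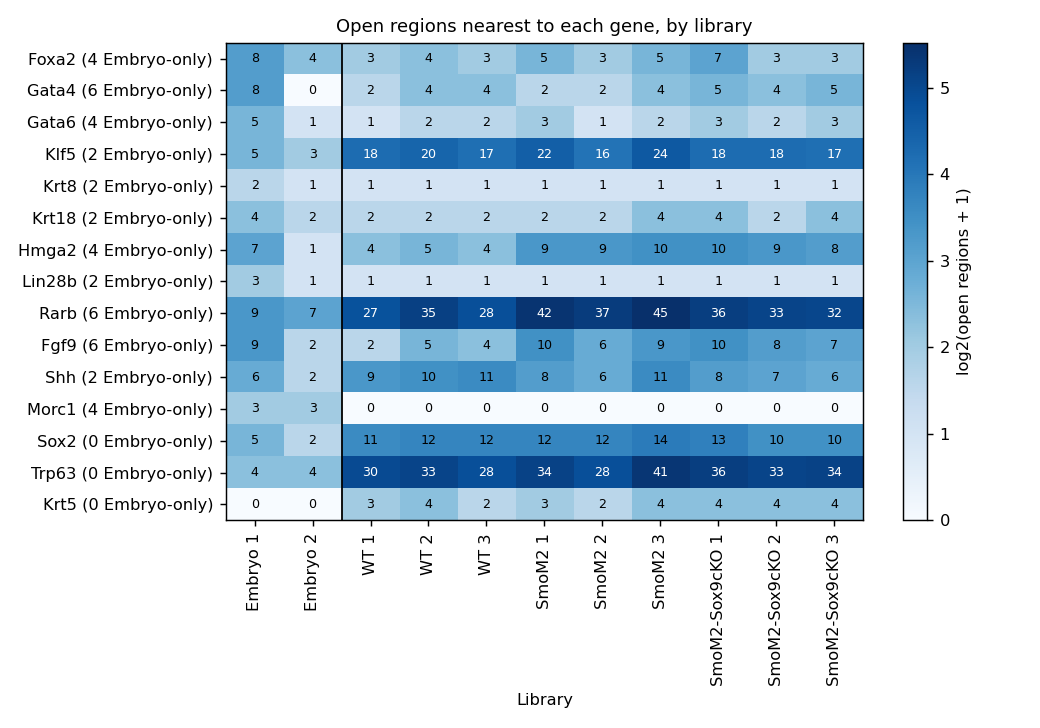
Number of regions open in each library (Embryo at the left of the line) that were nearest to each of 15 genes, with the number of Embryo-only regions beside each name. Colour follows log2(open regions + 1). Gata4 shows 8 and 0 in Embryo against 2 to 5 in adult libraries, Morc1 3 and 3 against 0, and Trp63 4 and 4 against 28 to 41.

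Genes of simple and columnar epithelium had members at 11 of 28 (39.3%), with 16 of 47 Embryo-open regions away from gene ends Embryo-only (34.0%). Besides Krt8, its partner Krt18 had 1 member in each Embryo library, at percentiles 61.6 and 3.33, and Krt19 had 1. The Krt8 locus held 2 and 1 open regions in Embryo and 1 in each adult library, and Krt18 held 4 and 2 in Embryo and 2 to 4 in adult libraries. Muc5ac, a gel-forming mucin, had 2 members, and so did Cldn18, a tight-junction claudin, and Lgr5, a receptor for R-spondins. Of the 11 genes only Lgr5 had a member open in both Embryo libraries (percentiles 34.7 and 8.81). Without Embryo 1 the count was 3 of 28 (10.7%), against 4.06% of all genes.

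The keratinocyte lists held fewer. Basal keratinocyte genes had members at 2 of 25 (8%), Dst and Krt14, with 2 of 42 regions away from gene ends (4.76%), and squamous differentiation genes at 4 of 32 (12.5%; 5 of 25 regions, 20%). Trp63, a regulator of stratified epithelia, had 0 members, with 4 and 4 open regions in the Embryo libraries and 28 to 41 in adult ones. Krt5 had 0 members, 0 and 0 open regions in Embryo and 2 to 4 in adult libraries. The low basal count was not kept with every list cut to its 14255 strongest intervals, which also drops the weaker adult calls. It became 10 of 25 (40.0%), above the 20.4% of all genes under that setting. The foregut, simple epithelium and oncofetal lists were also above it there, at 70.6%, 57.1% and 73.9%. Housekeeping genes had a member at 1 of 26 (3.85%; 1 of 14 regions, 7.14%), Rab7.

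Oncofetal and fetal growth genes had members at 7 of 23 (30.4%), and 13 of their 35 regions away from gene ends were Embryo-only (37.1%). Without Embryo 1 the count was 4 of 23 genes (17.4%), against 4.06% of all genes. Lin28b, which blocks maturation of let-7 microRNAs in embryonic cells, had the wide member at chr10:45522407-45525327, open in both Embryo libraries at percentiles 56.8 and 83.7. This member lay 35481 bp from the nearest region open in an adult library. The locus held 3 and 1 open regions in Embryo and 1 in each adult library. Hmga2, an architectural chromatin protein of embryonic tissue, had 4 members, 1 of them open in both libraries at percentiles 72.6 and 47.7 (chr10:120417243-120418079, inside the gene). Its locus held 7 and 1 open regions in Embryo, 8 to 10 in the SmoM2-Sox9cKO and SmoM2 libraries and 4 or 5 in WT. Dlk1, an imprinted Notch-like protein of fetal tissue, had 3 members.

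At the imprinted non-coding gene H19, a growth-restraining RNA of fetal tissue, 6 members lay within 100 kb, and 2 of these were open in both Embryo libraries. Of those 2, one was at chr7:142552707-142553573 (percentiles 54.9 and 10.4) and the other at chr7:142570549-142571086 (55.1 and 53.3). Assigned by distance to a protein-coding gene, 5 of the 6 counted for Mrpl23, a mitochondrial ribosomal protein. The stretch was not closed in the adult: within 100 kb of H19, 9 and 6 regions were open in Embryo, against 7 to 15 in adult libraries. At Meg3, the maternally expressed RNA next to Dlk1, 3 members lay within 100 kb. Of these 1, in the gene itself, was open in both Embryo libraries, at percentiles 15.8 and 3.33. Within 100 kb of Meg3, 3 and 1 regions were open in Embryo and 0 or 1 in WT libraries. The SmoM2 libraries had 4 or 5 there and the SmoM2-Sox9cKO libraries 5 to 7.

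Signaling genes showed counts above the share of all genes but region shares close to it in most lists. Hedgehog genes had members at 7 of 28 (25%), with 10 of 40 regions away from gene ends (25%). Shh, the ligand, had 2 members in Embryo 1 at percentiles 48.0 and 56.7, lying 10693 and 95900 bp from the gene. The receptor and target Ptch1 had 1 at percentile 15.8. Gli2, a transcriptional effector, had 2 members at percentiles 5.05 and 9.25, and Gli1 had 0. BMP and TGF-beta genes had members at 14 of 39 (35.9%; 32.4% of regions), led by the receptor gene Bmpr1b and the inhibitory Smad6 with 4 each, all in Embryo 1. Wnt genes had members at 13 of 50 (26.0%; 19.2% of regions), Notch genes at 7 of 25 (28.0%; 24.6%), and FGF and retinoic acid genes at 7 of 37 (18.9%; 27.6%).

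Within these lists, Rarb and Fgf9 had the most members, 6 each. Rarb encodes a retinoic acid receptor, and 2 of its 6 were open in both Embryo libraries, at percentiles 30.4 and 51.1 for one and 49.5 and 28.6 for the other. Its locus held 9 and 7 open regions in Embryo, against 27 to 45 in adult libraries. Fgf9, a fibroblast growth factor, had all 6 in Embryo 1, between percentiles 2.30 and 45.8. Etv4, a target of FGF signaling, had 1 member open in both libraries (43.3 and 51.7), and Maml3, a Notch coactivator, had 4, of which 2 were open in both.

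Transcription factor families and other lists varied. Sox genes had members at 7 of 19 (36.8%; 38.5% of regions). Sox9 had 2, both in Embryo 1, at percentiles 41.9 and 62.0, the second inside the gene at chr11:112784107-112784503. Sox11, a factor of embryonic progenitors, had 3, at 39917, 91669 and 98043 bp from the gene. The last was open in both libraries, at percentiles 2.30 and 58.5. The Sox11 locus held 3 and 3 open regions in Embryo, 0 or 1 in the SmoM2-Sox9cKO and SmoM2 libraries and 2 to 5 in WT. Hox genes had members at 5 of 39 (12.8%), a share near that of all genes, while 5 of their 12 Embryo-open regions away from gene ends were Embryo-only (41.7%). Axon guidance genes, many of them long, had members at 15 of 32 (46.9%; 33.3% of regions), with Robo1 holding 2 open in both libraries. Cell cycle genes had members at 6 of 37 (16.2%; 24.2% of regions) and chromatin and RNA regulators of progenitors at 7 of 22 (31.8%; 26.7%).

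Morc1, a gene that silences transposons in male germ cells, had 4 members and no region open in any adult library. Embryo 1 and Embryo 2 each had 3 open regions there, 2 of them the same (percentiles 30.4 and 21.95, and 82.7 and 21.95). The nearest region open in an adult library was over 300 kb from these 2 (308617 and 332039 bp). Prdm16, a zinc-finger regulator of progenitor cells, had 6 members, 2 of them open in both libraries at percentiles 43.5 and 14.9, and 61.5 and 52.3.

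Lists marking other cell types gave the following. Endothelial genes had members at 7 of 20 (35.0%), Sox17, Flt1, Egfl7, Fli1, Kdr, Lmo2 and Cdh5, each with 1 member open in 1 Embryo library. Their region share was 30.4% (7 of 23). Neuroendocrine and neural genes had members at 4 of 18 (22.2%; 5 of 16 regions, 31.2%) and neural crest and glia genes at 3 of 18 (16.7%; 5 of 12, 41.7%). Mesenchyme and fibroblast genes had members at 4 of 22 (18.2%; 5 of 19, 26.3%) and ciliated and airway genes at 3 of 19 (15.8%; 2 of 16, 12.5%). Liver, pancreas and intestine genes had members at 4 of 18 (22.2%; 5 of 11, 45.5%), germline genes at 3 of 18 (16.7%; 4 of 6, 66.7%) and muscle genes at 1 of 16 (6.25%; 0 of 7). The region shares of the neural crest, Hox, liver and germline lists thus reached or passed that of the foregut list, on 6 to 12 regions each. Erythroid genes (0 of 14; 0 of 2 regions) and immune genes (0 of 16, with no such region) had none. The part of other cells in the sort was not tested.

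**Figure D5:**
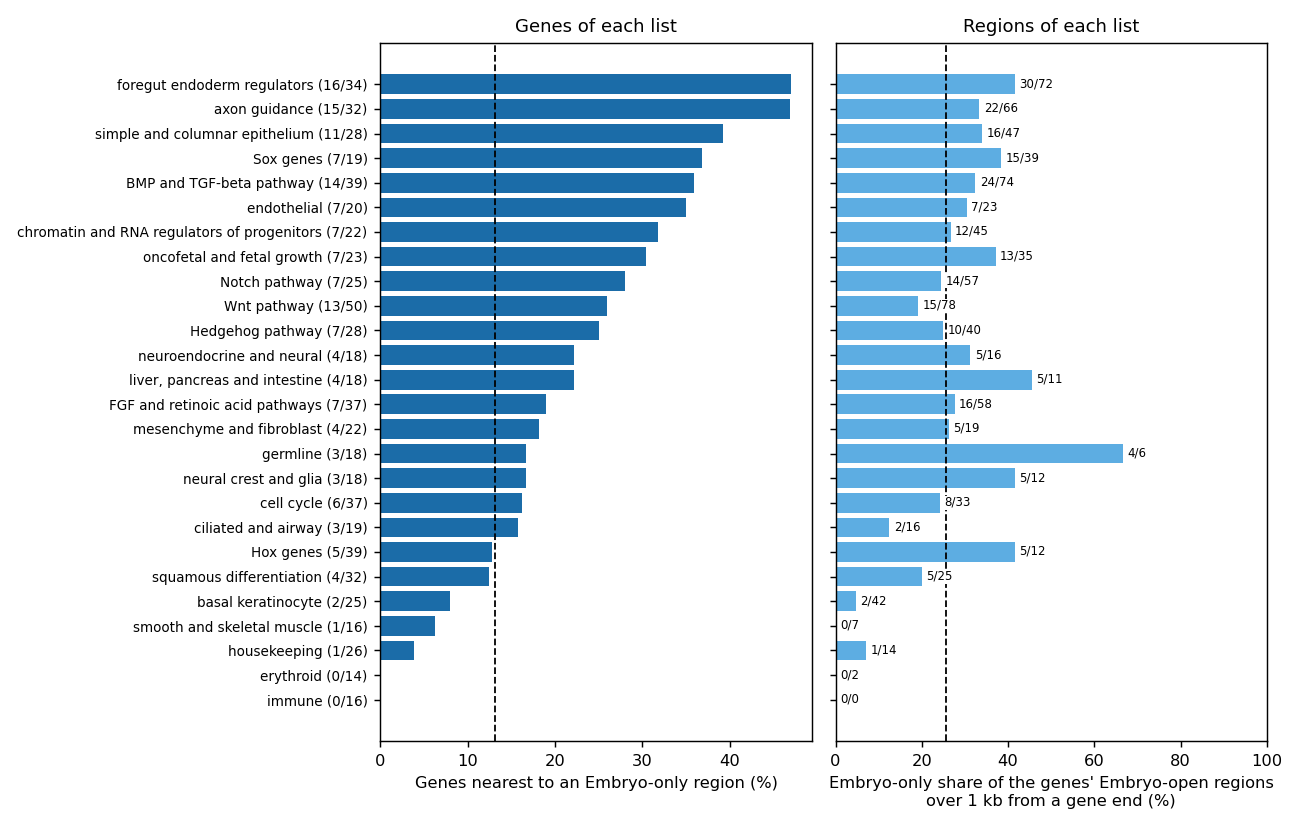
Left, percent of the genes of each list that were nearest to an Embryo-only region, with counts beside the names and the 13.2% of all protein-coding genes as a dashed line. Right, Embryo-only share of the same genes' Embryo-open regions over 1 kb from a gene end, with the 25.7% of all genes dashed; foregut endoderm regulators stand at 47.1% and 41.7%, basal keratinocyte genes at 8% and 4.76%.

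Promoters in the set held about as many CpG dinucleotides as promoters at large, and fewer than promoters of Embryo-open regions shared with adult libraries. The 183 members over a RefSeq promoter window (250 bases before to 50 after a start) covered 220 windows, with a median of 8 CpG per window. The 22 open in both Embryo libraries covered 25 windows, with a median of 4. These medians count every window, so a region over more than 1 start adds more than 1 window. Windows of Embryo-open regions shared with 1 to 8 adult libraries held 16, those shared with all 9 held 22, and all RefSeq windows 7. No window on chromosome 18 was among any of these. In the 250 bases before the start, with 1 window per region, TATAAA was present in 17.5% of members' windows, 5.24% of those shared with all 9 adult libraries and 12.4% of all windows. The GC box GGGCGG was present in 27.3%, 63.6% and 32.9% of them, in the same order. CCAAT differed little (37.2%, 36.3% and 34.0%). AGATAA was found in 11.5%, 4.53% and 10.02%, and the forkhead letters TGTTTAC in 4.92% (9 windows), 2.01% and 3.18%. In CpG and in each of these letters but CCAAT, members' promoters lay closer to all windows than to the promoters open in every adult library. Among 9498 RefSeq windows with CpG counts like those of members, TATAAA was in 12.5%, GGGCGG in 16.7% and CCAAT in 33.5%. AGATAA was in 11.7% of these windows and TGTTTAC in 3.82%. For GGGCGG, members thus stood above windows of like CpG and below all windows. The motifs and the use of 1 window per region were chosen after values were seen, and no match in a window says nothing of a factor.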

How the data were processed

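Cells were sorted, nuclei were treated with Illumina transposase and libraries sequenced, per the labels' protocols. Per the submitters' processing notes, the authors used Trimmomatic, Bowtie2, Picard, MACS2 and deepTools with GRCm38/mm10 (versions and settings: not given in the sources used here). Each deposited list has 10 columns. The score (column 5) was deposited by the authors and not used. The fold enrichment (column 7) comes from the authors' MACS2 calls, per the submitters' processing notes. So do, by the same notes, the authors' −log10 values of p (column 8) and q (column 9). They serve only to rank or filter intervals within a list. The summit offset (column 10, another value deposited by the authors) centred windows in one alternative.

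Lines repeating an interval were collapsed to the highest −log10 p, and lists were merged with python 3.11.15, pandas 2.3.3 and numpy 2.4.6. Coordinates are 1-based. Genes, promoters and microRNAs are from RefSeq tables of GRCm38.p6, without a genome sequence, so regions away from promoters are not printed. The promoter windows lack chromosome 18. A percentile is the rank of −log10 p in its list. Exact permutation tests used 55 arrangements of 11 libraries, with Benjamini-Hochberg adjustment over 3 measures. Wilson intervals came from scipy 1.17.1. The merging step was checked on simulated data, and the permutation test on fixed sets of values.

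Members, the 26 gene lists and the rules were chosen with earlier results of these data known. Named genes were up to 12 with most members open in both Embryo libraries, up to 12 with most members, up to 3 per list and 17 set genes; named regions were the highest ranked. Not every gene this rule picks is reported. Some further genes of the lists are named to complete small counts, after their values were seen. Alternatives were stricter intervals, equal lists, other windows, overlaps and distances, autosomes, a replicate block, and each library left out.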

Additional observations from a re-analysis of the deposited data

How the results depend on the processing

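Of the 4618 Embryo-only regions, 505 open in both libraries and 2852 genes, intervals with −log10 q of at least 5 in all lists left 1651, 220 and 1192, with 17.0% of regions of Embryo 1 open in Embryo 2. The same limit on Embryo lists alone left 1146, 99 and 854, with 10.7% (Embryo 1 regions) and 31.2% (Embryo 2 regions) found again. Lists of equal length gave 6772 regions, 1941 open in both, 4402 genes and 47.2% of Embryo 1 regions found again. Leaving out 1 library gave 1272 to 4836 regions, 510 to 578 open in both, 878 to 2943 genes, and 13.1% to 14.3% and 40.5% to 41.8% found again; the lowest counts of regions and genes were without Embryo 1. The differences of Embryo from adult libraries then ran from −39.6 to −27.7 points for gene ends, 6.18 to 8.06 for rank and 0.59 to 0.78 for log2 width, where with 1 Embryo library the exact permutation p cannot go below 0.2. Lists of equal length gave −10.2 points for gene ends, −0.31 for rank (reversed) and 0.00053 for log2 width. Requiring an interval to cover at least 0.5 of its region gave −35.5 (adjusted exact p = 0.0545), 3.58 (0.218) and 0.57 (0.0545). Ranking by fold gave 6.34 (exact p = 0.0727). Replicate numbers did not pair the libraries (correlations −0.027 to 0.025 with the same-numbered Embryo library), and the replicate block gave −33.3, 6.53 and 0.69 with p = 0.125, the smallest it allows. Causes were not tested beyond these settings. Among listed genes, an alternative added after the data were seen, equal lists raised oncofetal genes to 17 of 23 and housekeeping genes to 4 of 26. Unknown depth limits what absence from a list means.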

Other observations

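Members shared a few exact fold values. The 5 commonest fold enrichments among members in Embryo 1, from 2.87 to 4.01, belonged to 44.9% of its 3870 members and 11.9% of its other Embryo-open regions, and the 5 commonest in Embryo 2 to 47.6% of 1253 members and 11.4% of the others. The most frequent single value, 2.87 in Embryo 1, was held by 490 members. This was looked at after the values were seen, and no cause was tested.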
